A study of Mus musculus with 6 samples.

Results

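The genes described here are 32 members of the p53 pathway: Trp53 itself, its feedback regulators, and genes known as its targets in cell cycle arrest, DNA repair, cell death, growth and metabolism. They were taken from a list of symbols and found in the count tables through the GENCODE vM21 annotation (GRCm38), which placed all 32 among 46983 genes. Of these members 28 had enough reads to be tested, as had 12748 genes in all. The roles used to order them were written from textbook knowledge.

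The RNA came from naive CD4 T cells, the helper-lineage T cells that have not met antigen, which were sorted from lymph nodes of male mice and sequenced after removal of ribosomal RNA. Both groups carry Cmtr1 fl/fl alleles. The control group is Cmtr1 fl/fl CD4cre - and has 2 libraries, and the group labelled Cmtr1 cKO is Cmtr1 fl/fl CD4cre + and has 4. CD4-Cre recombines floxed alleles from the CD4-expressing stage in the thymus onward, which limits the intended deletion to the T lineage. Whether the allele was recombined in these cells is not shown by the counts. The controls lack the Cre transgene as well as the deletion, so effects of Cre and of Cmtr1 loss cannot be told apart. Age and strain are not given in the labels used here. Nothing in them says that each library is a separate mouse, so p-values reflect only the spread from library to library, possibly a technical one. CMTR1 adds a methyl group to the ribose of the first transcribed nucleotide beside the mRNA cap, and the series asks how the naive CD4 transcriptome depends on it.

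p53 is a transcription factor held at low protein level by the ubiquitin ligase MDM2. DNA damage, replication stress or disturbed ribosome assembly frees it from MDM2, and it then raises genes that stop the cell cycle, repair DNA, limit growth signalling or start apoptosis, along with Mdm2 and other genes that switch it off again. Its control is mainly on protein stability, so its own mRNA need not change when its targets do. It binds DNA as a tetramer at a full site made of a pair of decamers, each a short palindrome with a C and a G at fixed places in its core.

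The promoter sequences of RefSeq (GRCm38.p6, 250 bases before to 50 after each listed start) held entries for 24 of the members. The stretches below contain a decamer without mismatch, or the nearest approach to one in the members with the largest change. Sesn1, Ei24, Ppm1d and Abhd4 also had a decamer without mismatch and are not shown. Their log2 fold changes in the results below were -0.09, 0.07, -0.13 and -0.21. Capitals mark the decamers that make up full sites in Cdkn1a, Ccng1 and Ckap2, where up to 2 mismatches were allowed, and the decamer without mismatch in the others. Sequences run 5′ to 3′ on the gene's strand. The first is upstream of the first listed start of Cdkn1a (chr17:29090896-29090957, plus strand). It holds 2 decamers without mismatch, which begin 73 and 51 bases before the start. The others are Ccng1 (chr11:40755452-40755491, minus strand), Ckap2 (chr8:22185993-22186032, minus strand), Aen (chr7:78895927-78895956, plus strand), Polk (chr13:96519399-96519428, minus strand), Mdm2 (chr10:117710925-117710954, minus strand) and Trp53 (chr11:69580274-69580303, plus strand).
Cdkn1a: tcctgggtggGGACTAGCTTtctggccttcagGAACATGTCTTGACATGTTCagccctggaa
Ccng1: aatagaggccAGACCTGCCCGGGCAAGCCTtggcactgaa
Ckap2: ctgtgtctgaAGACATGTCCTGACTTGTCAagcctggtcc
Aen: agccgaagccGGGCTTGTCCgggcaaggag
Polk: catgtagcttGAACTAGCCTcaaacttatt
Mdm2: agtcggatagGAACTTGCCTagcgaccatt
Trp53: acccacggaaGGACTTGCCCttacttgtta

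Phlda3 and Psrc1, the members with the largest fold change, had no decamer without mismatch in these windows. Their 250 bases before the listed start are chr1:135765835-135766084 and chr3:108383554-108383803, both on the plus strand. Capitals mark the nearest stretch, with 2 mismatches in each, a degree of likeness found in 93.9% of all genes with a promoter entry.
Phlda3: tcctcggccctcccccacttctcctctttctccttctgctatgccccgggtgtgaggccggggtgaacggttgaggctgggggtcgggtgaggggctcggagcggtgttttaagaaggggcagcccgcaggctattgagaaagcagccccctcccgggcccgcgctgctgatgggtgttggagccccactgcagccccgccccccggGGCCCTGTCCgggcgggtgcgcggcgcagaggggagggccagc
Psrc1: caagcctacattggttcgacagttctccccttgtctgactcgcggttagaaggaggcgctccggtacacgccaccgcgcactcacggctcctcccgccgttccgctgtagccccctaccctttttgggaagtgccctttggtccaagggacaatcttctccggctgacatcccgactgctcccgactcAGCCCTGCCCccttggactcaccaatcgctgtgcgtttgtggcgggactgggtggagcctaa

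Depth was 9513874 to 11949838 gene counts per library. Levels are in CPM, counts scaled to library size with edgeR's TMM factors, and group values are means ± SD with n = 2 controls and n = 4 Cmtr1 cKO. The targeted gene does not check the labels, because Cmtr1 had 11.2 and 11.4 CPM in the control libraries, against 16.0, 19.8, 14.6 and 7.57 CPM in Cmtr1 cKO 1 to 4, and which exon was deleted is not said in the labels. Directions below are those of the libraries as labelled. Uniquely mapped reads that matched no exon on the counted strand are called the outside-exon share below. Reads on the strand opposite to an exon are thus part of it. In the controls the share was 37.2% and 34.0% of all uniquely mapped reads. In Cmtr1 cKO 1 to 4 it was 52.3%, 51.6%, 46.7% and 38.0%, so Cmtr1 cKO 4 lay beside the controls. Cmtr1 cKO 3 had 1707028 gene counts on the other strand, against 490432 to 551462 in the other libraries. The share was not corrected for such reads. An exact two-sided permutation test of this share gave p = 0.133, where 0.0667 is the smallest p the design allows. Naive T cell markers summed to 5737 to 5877 CPM in the controls and 5269 to 6228 in Cmtr1 cKO, with Thy1 and Ccr7 lower and 7 of the 9 not called. Markers of other cells had lower sums: 4 NK cell genes summed to 13.3 to 16.8 CPM in the controls and 5.40 to 7.91 in Cmtr1 cKO, with Klrd1 called lower. The 5 myeloid genes summed to 4.18 to 16.4 CPM against 2.84 to 4.34, the 5 B cell genes to 27.9 to 36.5 against 18.7 to 37.1, the 2 CD8 T cell genes to 23.6 to 28.7 against 17.0 to 21.3, and the 4 regulatory T cell genes to 104 to 153 against 119 to 163. The 4 thymocyte genes summed to 8.84 to 13.6 CPM against 9.31 to 12.9, with Rag2 and Ptcra at 0 counts in every library, and the 4 erythroid genes to 1.92 to 3.79 against 0.635 to 2.59. Of the stromal and endothelial list only Pecam1, which T cells also express, was abundant, and that list summed to 309 to 320.1 CPM against 319 to 340.3. The part of these cells in the results was not tested. In bulk RNA, fewer cells that express a gene and less RNA per cell cannot be told apart.

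Between the genotypes 8 of the 28 tested members were called higher and 1 lower in Cmtr1 cKO, where a call is an adjusted p under 0.05 by edgeR (quasi-likelihood test, Benjamini-Hochberg over all genes tested). Over all genes 4.66% were called higher and 6.77% lower. The genes that rose were Phlda3, Psrc1, Ckap2, Plk2, Aen, Ddb2, Polk and Mdm4, and Rrm2b fell. They fall in 2 kinds: Phlda3 and Psrc1 changed more than 11-fold from almost no reads, and Ckap2 and Plk2 changed 3.13-fold and 2.62-fold from the same low base, while Aen, Ddb2, Polk and Mdm4 rose by less than 1 on the log2 scale from well-expressed levels. The median log2 fold change of the 28 was 0.22, against 0.00 over all genes tested, and 22 lay above 0. In 14 members all 4 Cmtr1 cKO libraries lay above both controls, which held for 18.2% of all genes, and in 2 members all lay below, which held for 20.8%.

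Phlda3, Psrc1, Cdkn1a, Ckap2 and Plk2 reached the count filter in Cmtr1 cKO libraries only, 4 of these 5 being called higher, so the counts above are a description of the members that could be tested. Among the 19 members with a mean of at least 10 CPM over all 6 libraries, a level chosen after the values were seen, 4 were called higher and 1 lower, against 5.32% and 8.83% of all genes at that level. Without a filter 10 members were called higher and 1 lower. Of all genes 1167 and 1105 were then called, against 594 and 863 with the filter, and their share of the genes in that fit was not computed. Without control 1, 3 members were called higher and 0 lower, against 0.529% and 1.43% of all genes. Without control 2 they were 2 and 0, against 0.299% and 1.18%. Leaving out Cmtr1 cKO 1, 2 or 3 gave 6, 6 and 5 higher, against 2.15%, 1.81% and 1.75% of all genes, and 0 lower, against 3.73%, 3.44% and 3.03%. Leaving out Cmtr1 cKO 4 gave 14 higher and 1 lower, against 15.4% of all genes in each direction. Phlda3 and Psrc1 were called under all 12 alternatives tried, and they were the only members for which this held.

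**Figure D1:**
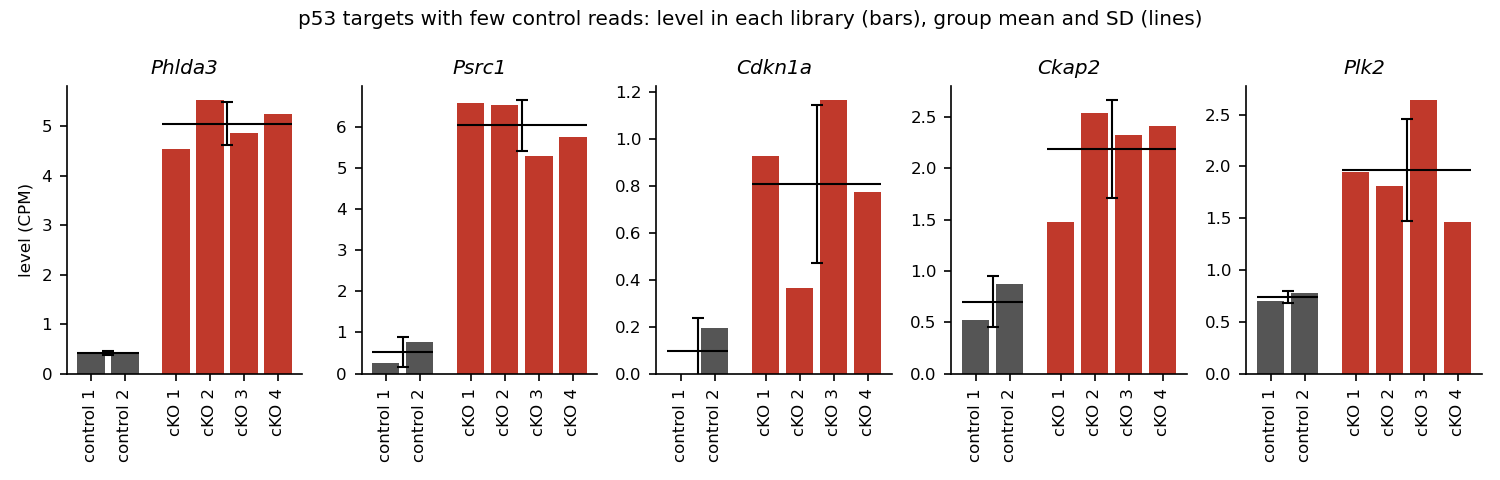
Level in CPM of 5 p53 targets in each library, controls in grey and Cmtr1 cKO in red, with lines at the group means and bars for the SD (n = 2 and n = 4), the lower SD bar of Cdkn1a being clipped at 0. In each gene all 4 Cmtr1 cKO libraries lie above both controls, and the gap is widest for Phlda3 and Psrc1. These 5 genes reached the count filter in Cmtr1 cKO libraries only, so this separation is fixed in part by the filter.

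Among the 6 arrest and cell cycle genes 3 were called higher and 0 lower, with a median log2 fold change of 1.52 (1.24 without Cmtr1 cKO 3). All 3 called, and Cdkn1a, passed the filter through Cmtr1 cKO only, so this count and median are fixed in part by the filter, and the other 2 genes had 0.18 and 0.24. Psrc1 encodes a protein of spindle microtubules and lies on chromosome 3 (108383839 to 108388231, plus strand). Its counts were 3 and 8 in the controls and 71, 72, 50 and 67 in Cmtr1 cKO 1 to 4, or 0.262 and 0.777 CPM against 6.57, 6.53, 5.29 and 5.76 CPM. The groups did not overlap, and the lowest Cmtr1 cKO library was more than 6 times the higher control. The log2 fold change was 3.54 ± 0.36 (SE, edgeR adjusted p = 0.000342), an 11.7-fold rise, and it ran from 2.95 without control 1 to 4.48 without control 2. Few control reads limit its size, with summed counts of 260 against 11. Scaled to the summed library sizes of each group, their ratio was 12.0, with an exact 95% counting interval of 6.58 to 24.3.

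Cdkn1a encodes p21, the inhibitor of cyclin-dependent kinases through which p53 stops the cell cycle. It had 0 and 2 reads in the controls and 10, 4, 11 and 9 in Cmtr1 cKO 1 to 4, that is 0 and 0.194 CPM against 0.926, 0.363, 1.16 and 0.774 CPM. Every Cmtr1 cKO library was above both controls, but a count of 0 in control 1 allows up to 0.262 CPM. The ratio of summed counts, scaled to the summed library sizes of each group, was 8.61 with a 95% counting interval of 2.21 to 74.0. It narrowly missed the threshold (log2 fold change 2.96 ± 0.90, edgeR adjusted p = 0.0537), was called without Cmtr1 cKO 2 or 4 (edgeR adjusted p = 0.0483 and 0.0226) and without a filter (0.012), and went to 1.98 and 6.14 without control 1 and 2, uncalled. Without Cmtr1 cKO 1 or 3 it did not pass the filter and was not tested. On unstranded counts (2.41) and with the outside-exon share as a covariate (3.19) it was further from a call (edgeR adjusted p = 0.101 and 0.107). The p21 mRNA was thus scarce in both groups, at 0.0971 ± 0.137 and 0.807 ± 0.337 CPM.

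Ckap2, a spindle protein, had 0.525 and 0.874 CPM in the control libraries, against 1.48, 2.54, 2.33 and 2.41 CPM in Cmtr1 cKO 1 to 4. Its log2 fold change was 1.64 ± 0.40 (SE, edgeR adjusted p = 0.0268), and the call ended without control 1 or 2 or Cmtr1 cKO 2 or 3 (edgeR adjusted p = 0.192, 0.126, 0.061 and 0.0653). Plk2, a stress-induced polo-like kinase, had 0.699 and 0.777 CPM in the control libraries, against 1.94, 1.81, 2.64 and 1.46 CPM in Cmtr1 cKO. It rose by 1.39 ± 0.39 (SE, edgeR adjusted p = 0.0432), and this call ended without either control (adjusted p = 0.209 and 0.213) and without Cmtr1 cKO 1, 2 or 3 (0.0819, 0.0773 and 0.0973). It also ended on unstranded counts (adjusted p = 0.053), with the covariate described below and with DESeq2 (adjusted p = 0.098), and was kept under 4 of the 12 alternatives. Both genes were separated between the groups in these 6 libraries at levels where a few reads decide the call.

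Plk3, the related kinase, had 12.1 ± 0.97 CPM against 14.4 ± 1.6 and was not called. Ccng1, cyclin G1, which brings a phosphatase to MDM2, was by far the most abundant arrest gene, with 177 and 191 CPM in the control libraries, against 199, 199, 200.1 and 231 CPM in Cmtr1 cKO. All 4 Cmtr1 cKO libraries were above both controls, by a log2 fold change of only 0.18 ± 0.08 (SE), which missed the threshold (edgeR adjusted p = 0.171).

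**Figure D2:**
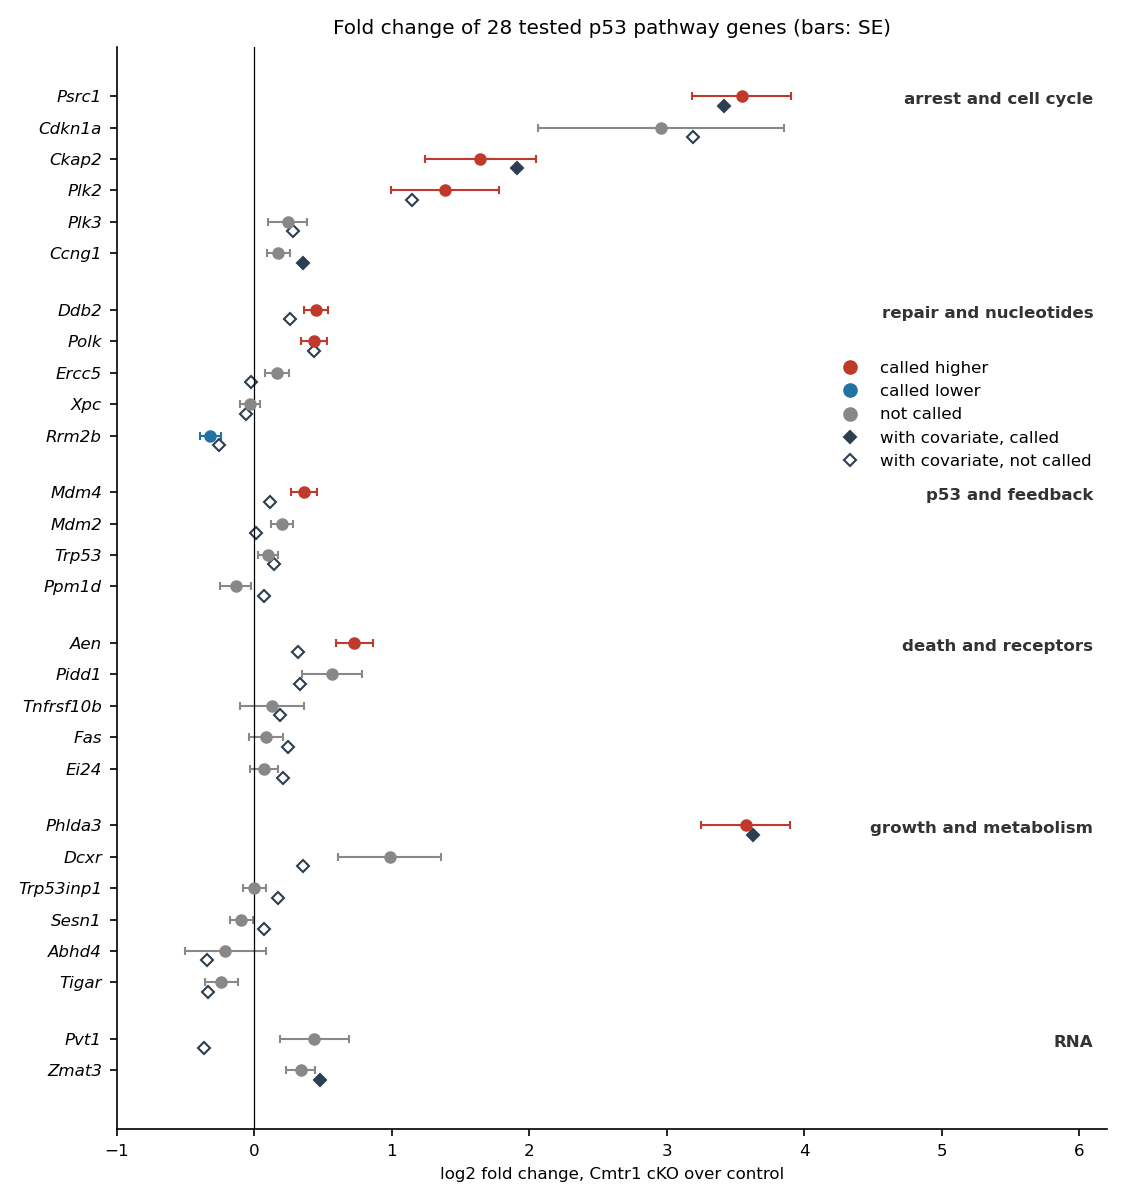
Log2 fold change of the 28 tested members, Cmtr1 cKO over control, grouped by role (circles, bars are SE; red called higher, blue called lower, grey not called). Diamonds give the same with the outside-exon share as a covariate, filled where called: Phlda3, Psrc1 and Ckap2 stay called, and Ccng1 and Zmat3 are called with the covariate and not without it.

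Of the 5 repair and nucleotide genes 2 were called higher and 1 lower, with a median of 0.16. Ddb2, whose product recognises ultraviolet lesions for nucleotide excision repair, had 69.6 and 69.1 CPM in the control libraries, against 96.3, 100.9, 97.9 and 83.7 CPM in Cmtr1 cKO 1 to 4. The controls were nearly equal and all 4 Cmtr1 cKO libraries lay above them, Cmtr1 cKO 4 least. The log2 fold change was 0.45 ± 0.09 (SE, edgeR adjusted p = 0.00933), and the call ended without control 1 or control 2 (adjusted p = 0.0926 and 0.115). On the opposite strand 23.8% of the exon bases of Ddb2 overlap Acp2, but the counts are stranded and the call was the same on unstranded counts.

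Polk, a polymerase that copies past damaged bases, had 21.4 and 22.6 CPM in the control libraries, against 31.2, 29.4, 28.2 and 30.1 CPM in Cmtr1 cKO. Its 4 Cmtr1 cKO values were close together and none reached down to the controls. It rose by 0.43 ± 0.10 (SE, edgeR adjusted p = 0.0177), and without control 1 or 2 the change was 0.40 and 0.49 but uncalled (adjusted p = 0.143 and 0.119). Rrm2b, the p53-induced ribonucleotide reductase subunit that supplies nucleotides for repair, went the other way, with 59.7 and 58.2 CPM in the control libraries, against 45.5, 46.8, 47.6 and 49.1 CPM in Cmtr1 cKO. All 4 were below both controls. It fell by 0.32 ± 0.07 (SE, edgeR adjusted p = 0.0231), a call that ended without either control (adjusted p = 0.163 and 0.16) and without Cmtr1 cKO 1, 2 or 3 (0.0603, 0.0602 and 0.0713). Xpc, the lesion sensor of global excision repair, had 67.3 ± 2.1 CPM against 65.8 ± 2.3, and the endonuclease gene Ercc5 45.7 ± 2.1 against 51.2 ± 3.6. Neither passed the test, so repair genes that p53 regulates did not move one way in these libraries.

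Of the 4 core and feedback genes 1 was called higher and 0 lower, with a median of 0.15. Trp53 had 82.5 and 87.7 CPM in the control libraries, against 85.3, 93.8, 94.9 and 91.5 CPM in Cmtr1 cKO 1 to 4. Its groups overlapped, and the log2 fold change of 0.10 ± 0.07 (SE) did not pass (edgeR adjusted p = 0.37). Mdm2 had 85.1 and 80.4 CPM in the control libraries, against 103, 98.0, 92.6 and 86.9 CPM in Cmtr1 cKO. All 4 were above both controls by small steps, Cmtr1 cKO 4 by less than 2 CPM, and the change of 0.20 ± 0.08 (SE) was not called (edgeR adjusted p = 0.125). Among the fits with 1 library left out it was called without Cmtr1 cKO 4 (0.24, edgeR adjusted p = 0.0146). The reads of Mdm2 are summed over its transcripts, so the p53-driven start inside the gene is not seen apart.

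Mdm4, which encodes the MDM2 partner that blocks the activation domain of p53, was the only called feedback gene. It had 359 and 353 CPM in the control libraries, against 496, 491, 446 and 401 CPM in Cmtr1 cKO 1 to 4, all above the controls. The log2 fold change was 0.37 ± 0.09 (SE, edgeR adjusted p = 0.031). This call ended with any 1 library other than Cmtr1 cKO 4 left out, at adjusted p = 0.16 and 0.21 without control 1 and 2 and 0.0687, 0.0753 and 0.0736 without Cmtr1 cKO 1, 2 and 3. Per kb of exon, Mdm4 stood at 1.14 ± 0.06 times the Trp53 level in the controls and 1.38 ± 0.17 times in Cmtr1 cKO, and Mdm2 at 0.775 ± 0.064 and 0.832 ± 0.094 times. Ppm1d, the phosphatase WIP1 that reverses damage signalling to p53, had 32.1 and 31.7 CPM in the control libraries, against 24.8, 28.2, 31.3 and 31.8 CPM in Cmtr1 cKO. Its lowest value was in Cmtr1 cKO 1, the groups overlapped, and it was not called (-0.13 ± 0.11, SE).

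**Figure D3:**
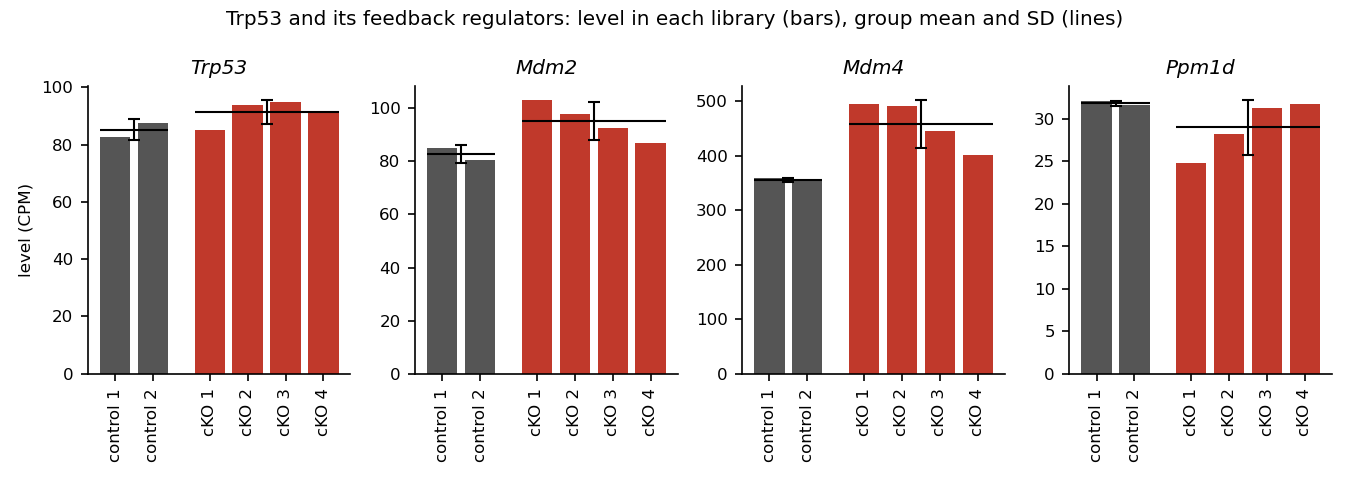
Level in CPM of Trp53, Mdm2, Mdm4 and Ppm1d in each library, controls in grey and Cmtr1 cKO in red, with lines at the group means and bars for the SD (n = 2 and n = 4). Trp53 and Ppm1d overlap between the groups, and Mdm2 and Mdm4 are above both controls in all 4 Cmtr1 cKO libraries, least in Cmtr1 cKO 4.

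Of the 7 death and receptor genes 5 were tested, and 1 was called higher and 0 lower, with a median of 0.13 (0.34 without control 2). Aen, a nuclease that p53 induces in apoptosis, had 39.6 and 32.6 CPM in the control libraries, against 67.3, 66.4, 57.7 and 48.6 CPM in Cmtr1 cKO 1 to 4. The groups did not overlap. It rose by 0.73 ± 0.14 on the log2 scale (SE, edgeR adjusted p = 0.00911), and the call ended only without control 2 (0.61, adjusted p = 0.14) and in the covariate fit described below. Pidd1, the scaffold that activates caspase-2, had 3.41 and 4.37 CPM in the control libraries, against 6.76, 5.53, 5.82 and 4.90 CPM in Cmtr1 cKO, and its 0.57 ± 0.22 (SE) missed the threshold (edgeR adjusted p = 0.112; 0.0388 without Cmtr1 cKO 4).

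The death receptors themselves did not pass the test. Fas had 25.1 and 24.0 CPM in the control libraries, against 22.3, 24.5, 30.5 and 27.1 CPM in Cmtr1 cKO, a log2 fold change of 0.09 ± 0.13 (SE). Tnfrsf10b, the mouse TRAIL receptor, had 4.22 ± 0.77 CPM against 4.58 ± 0.69. The groups overlapped in both receptors. Ei24, an endoplasmic reticulum protein, had 36.9 and 32.1 CPM in the control libraries, against 35.9, 33.6, 35.3 and 40.3 CPM in Cmtr1 cKO, and it was not called. Eda2r, the ectodysplasin receptor XEDAR, had 2 reads in control 1 and 0 in every other library, and Perp, a membrane protein of cell junctions, 1 read each in Cmtr1 cKO 3 and 4 and 0 elsewhere. A count of 0 allows up to 0.258 to 0.317 CPM in these libraries, so both were at or below what this depth can show in naive CD4 T cells.

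Among the 8 growth and metabolism genes 6 were tested, and 1 was called higher and 0 lower, with a median of -0.05 (0.06 without control 2). The called gene passed the filter through Cmtr1 cKO only. Phlda3 encodes a small protein of membrane phosphoinositides that competes with AKT for them, and lies on chromosome 1 (135766119 to 135769136, plus strand). Its counts were 5 and 4 in the controls and 49, 61, 46 and 61 in Cmtr1 cKO 1 to 4, that is 0.437 and 0.388 CPM against 4.54, 5.53, 4.87 and 5.25 CPM. The 4 Cmtr1 cKO libraries were within a narrow band, and every one was more than 10 times both controls. The log2 fold change was 3.57 ± 0.33 (SE, edgeR adjusted p = 0.000175), an 11.89-fold rise, and it lay between 3.51 and 3.67 under the 12 alternatives tried. Summed reads were 217 against 9. Scaled to the summed library sizes of each group, their ratio was 12.2, with a 95% counting interval of 6.32 to 27.1.

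No other growth gene was called. Trp53inp1, which promotes autophagy and p53 phosphorylation, was the most abundant at 386 ± 31 CPM in the controls and 386 ± 25 CPM in Cmtr1 cKO, with a log2 fold change of 0.00 ± 0.08 (SE). Sesn1, a sestrin that restrains mTORC1, had 105 ± 11 against 98.4 ± 6.0 CPM. Tigar, a phosphatase that lowers glycolytic flux, had 18.8 and 15.9 CPM in the control libraries, against 14.8, 15.1, 14.8 and 14.2 CPM in Cmtr1 cKO, all below both controls, but -0.24 ± 0.12 (SE) was not called (edgeR adjusted p = 0.2). Dcxr, a carbonyl reductase, had 1.22 and 0.777 CPM in the control libraries, against 2.499, 2.18, 1.90 and 1.46 CPM in Cmtr1 cKO, and its 0.98 ± 0.37 (SE) was called only without Cmtr1 cKO 4 among the libraries left out in turn (1.12, edgeR adjusted p = 0.0309). Abhd4, a lipid hydrolase, had 2.38 ± 0.21 against 2.08 ± 0.47 CPM. Gdf15, a secreted stress cytokine, had 2 reads in control 1 and none elsewhere, and Ak1, an adenylate kinase, had 0 reads in all 6 libraries.

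Zmat3, an RNA-binding regulator of splicing, had 21.4 and 23.1 CPM in the control libraries, against 28.05, 25.1, 29.5 and 29.8 CPM in Cmtr1 cKO 1 to 4. All 4 lay above the controls, and the log2 fold change of 0.34 ± 0.11 (SE) narrowly missed the threshold (edgeR adjusted p = 0.0624; 0.0413 without Cmtr1 cKO 4). Pvt1, the long noncoding RNA beside Myc, had 17.5 and 17.9 CPM in the control libraries, against 28.8, 30.9, 20.5 and 15.6 CPM in Cmtr1 cKO. Its Cmtr1 cKO libraries disagreed, Cmtr1 cKO 4 falling below both controls, and the change of 0.44 ± 0.25 (SE) was not called (edgeR adjusted p = 0.261; 0.00833 without Cmtr1 cKO 4).

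The members differed in how they followed the outside-exon share. Of the 8 that rose, 4 had their lowest Cmtr1 cKO value in Cmtr1 cKO 4, the library with the share nearest to the controls. How many of all genes called higher had this order was not counted, so the count is no result about the members. In that library Phlda3 stood at 12.7 times the control mean and Psrc1 at 11.1 times, beside 11.0 and 12.6 times in Cmtr1 cKO 1, and Polk at 1.37 times (1.42 in Cmtr1 cKO 1). Aen stood at 1.35 times against 1.86 in Cmtr1 cKO 1, Mdm4 at 1.13 against 1.39, Ddb2 at 1.21 against 1.39, and Pvt1 at 0.881 against 1.63. With this share as a covariate 5 members were called higher and 0 lower, while 2.51% and 2.71% of all genes were. Phlda3 (3.62), Psrc1 (3.41) and Ckap2 (1.91) stayed called. Ccng1 (0.36, edgeR adjusted p = 0.00308) and Zmat3 (0.48, adjusted p = 0.0403) were called in that fit. Polk kept its size at 0.43 (adjusted p = 0.0605), Plk2 had 1.147 (0.284) and Rrm2b -0.25 (0.15), while Aen had 0.32 (0.0847), Ddb2 0.26 (0.0805), Mdm4 0.12 (0.336), Mdm2 0.02 and Pvt1 -0.36, all uncalled (edgeR with Benjamini-Hochberg adjustment). The role medians in that fit were 0.25 for death, -0.02 for repair, 0.09 for feedback, 0.12 for growth and 0.06 for the RNA genes. That of the arrest and cell cycle genes was 1.53, fixed in part by the filter as described above. What part this share has in the results for the latter genes was not tested otherwise.

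**Figure D4:**
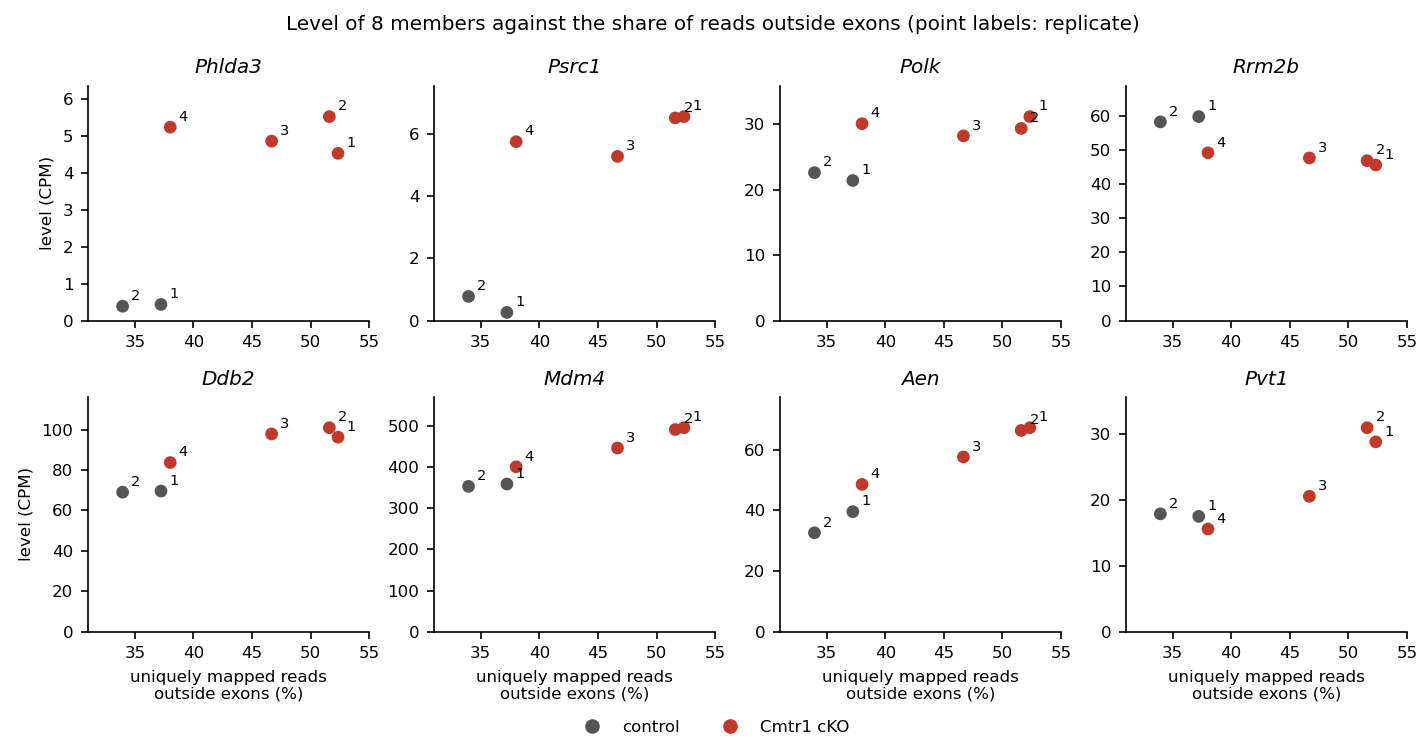
Level in CPM of 8 members against the outside-exon share, in percent of uniquely mapped reads and including reads opposite to an exon. There is 1 point per library, controls in grey and Cmtr1 cKO in red with replicate numbers. Phlda3, Psrc1 and Polk are high and Rrm2b is low in Cmtr1 cKO 4, where the share is 38.0%. Aen, Ddb2, Mdm4 and Pvt1 have their lowest Cmtr1 cKO value there.

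A p53 decamer without mismatch was found in the RefSeq promoter windows of 11 of the 24 members with an entry (45.8%), against 9.55% of 27025 genes. The decamer is its own reverse complement, so a single pass reads both strands. A full site (2 decamers with up to 13 bases between them, at most 2 mismatches in all, the core C and G kept) was found for Cdkn1a, Ccng1, Ckap2 and Sesn1, or 16.7% against 4.71% of genes. Since the members were chosen as known p53 targets, these shares describe the list only. Of the 11 members with a decamer 3 were called higher (Ckap2, Polk and Aen). So were 4 of the 10 tested members without one (Phlda3, Psrc1, Plk2 and Mdm4), against 4.66% of all genes. The medians were 0.18 and 0.47. Phlda3, Psrc1, Plk2, Ckap2 and the uncalled Cdkn1a passed the filter through Cmtr1 cKO only. These counts and medians are thus fixed in part by the filter, and they cannot show whether a site goes with a rise. In Aen the site shown above begins 11 bases after the first listed start and at position -121 from the second. In Polk it lies upstream of a second start inside the gene. Ddb2, Xpc, Rrm2b, Tnfrsf10b, Perp, Trp53inp1, Zmat3 and Pvt1 had no entry.

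Levels of different genes were compared per kb of exon. In the controls Trp53inp1 (59.7 CPM per kb) and Ccng1 (52.3) were highest, followed by Sesn1 (26.4), Ddb2 (25.3), Mdm4 (24.0), Trp53 (21.04) and Mdm2 (16.3). After their rise Psrc1 and Phlda3 reached 1.80 and 3.24 CPM per kb, from 0.154 and 0.265, and so remained below these genes. Cdkn1a reached 0.227 CPM per kb, the lowest of the tested members in Cmtr1 cKO. The largest fold changes were thus carried by few transcripts.

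Other genes of the pathway are given from lists that, like the members, were written with earlier results of these data known. Of 40 other p53 targets 31 were tested, and 3 were called higher and 3 lower, where all genes gave 4.66% and 6.77%. The median was -0.06, and it went to -0.10 without control 1, 0.03 without control 2, -0.03 without Cmtr1 cKO 4 and 0.00 with the covariate. Ptprv, a receptor phosphatase induced by p53 in mouse cells, rose by 1.12 ± 0.22 (SE, edgeR adjusted p = 0.00988), from 5.68 and 6.41 CPM to 14.2, 15.7, 13.6 and 9.20 CPM. The death genes Bbc3 (PUMA) and Bax, which open the mitochondrial pathway, rose by 0.58 ± 0.14 and 0.44 ± 0.12 (SE, edgeR adjusted p = 0.0239 and 0.0382). Bbc3 went from 10.005 ± 0.55 to 14.9 ± 1.2 CPM, with every Cmtr1 cKO library above both controls. Pmaip1 (NOXA) had 1.27 ± 0.56 against 0.879 ± 0.169 CPM and was not called. Ddit4 fell by 0.61, Sertad1 by 0.50 and Ass1 by 0.32 on the log2 scale. Ddit4 alone of these 3 was called without either control, without Cmtr1 cKO 1, 2 or 3, or with the covariate. With either control left out none of the 3 higher calls of this list was kept, and without Cmtr1 cKO 3 only that of Ptprv was. The call of Bax also ended without Cmtr1 cKO 1 (edgeR adjusted p = 0.0688) and on unstranded counts (0.0551). That of Sertad1 also ended on unstranded counts (0.0561) and with DESeq2 (0.0526). With the covariate Ptprv had 0.57, uncalled, and Bbc3 0.61 (edgeR adjusted p = 0.152 and 0.0587).

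Among 26 regulators of p53, 23 were tested, and 1 was called higher and 2 lower, with a median of 0.01 (-0.04 with the covariate). These counts are near the 4.66% and 6.77% of all genes. Pml, the organiser of nuclear bodies that modify p53, rose by 0.35 ± 0.09 (SE). Rpl5 and Rpl11, ribosomal proteins that bind MDM2 when ribosome assembly is disturbed, fell by 0.76 ± 0.12 and 0.81 ± 0.12 (SE, edgeR adjusted p = 0.00351 and 0.00291). The call of Pml ended without either control or Cmtr1 cKO 1 or 2 (adjusted p = 0.107, 0.271, 0.0730 and 0.0796), as it did with the covariate (0.26, adjusted p = 0.198), and those of Rpl5 and Rpl11 without control 2 (0.0843 and 0.0643). With the covariate Rpl5 had -0.43 and Rpl11 -0.44, both still called. The kinase gene Atm was not called.

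Genes that p21 lowers through the DREAM repressor complex, all of them proliferation genes, form the last list. Of 22 such genes 21 were tested, and 7 were called higher and 0 lower, with a median of 0.57 (0.66 to 0.78 without control 1, control 2 or Cmtr1 cKO 1), and 13 had all 4 Cmtr1 cKO libraries above both controls. Over all genes 4.66% were called higher and 18.2% lay above in this way. Birc5 and Nusap1, both called, and Cdk1, Bub1 and Aurkb lay under the filter level of 0.927 CPM in both controls. They passed the filter through Cmtr1 cKO only, so these counts and the median are fixed in part by the filter. Mki67, a marker of cycling cells, rose by 1.13 ± 0.15 (SE, edgeR adjusted p = 0.0013), from 12.1 ± 2.6 to 26.3 ± 3.1 CPM. Top2a rose by 0.89 and Pole by 0.91, and Nusap1, Birc5, Ccna2 and Cenpa by 1.83, 1.67, 1.05 and 0.57. On unstranded counts Nusap1 had 0.67 and was not called. The higher calls numbered 3 and 4 without control 1 and 2 (0.529% and 0.299% of all genes), 4 without Cmtr1 cKO 2 or 3 (1.81% and 1.75%), and 3 with the outside-exon share as a covariate (2.51%). Mki67, Top2a and Pole were called under every alternative tried.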

How the data were processed

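The deposited values are read counts per gene, 1 table per library with an unstranded and 2 stranded columns, in the layout of STAR's gene table. The submitters' processing notes name STAR 2.5.2b and edgeR, with the builds mm10 and GRCm38. Which annotation was counted: not given in the sources used here. For tests, the column of the gene's own strand was used. It held 5.57 times the reads of the other strand in Cmtr1 cKO 3 and 18.7 to 22.7 times in the other libraries. The 4 rows that name no gene held 52.1% to 62.0% of reads and were left out. Of 46983 identifiers 98.9% matched GENCODE vM21, which gave symbols, positions and exon lengths.

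Genes passing filterByExpr (12748) were tested with edgeR 4.0.16 in R 4.3.3 (TMM, robust quasi-likelihood, genotype as the only term, all 6 libraries), with Benjamini-Hochberg adjustment and a threshold of 0.05. SE is the log2 fold change divided by the square root of F. Counting intervals are exact and, like the floor of 3 counts for a count of 0, cover counting error only. On counts simulated for this comparison over 12551 genes, edgeR called 55.2%, 82.8% and 100% of those with a log2 change of 0.5, 1 and 2, and 9 of 12357 unchanged ones. The simulation changed 200 genes and drew each gene independently, with no shift shared across a library. These rates therefore need not hold for the real libraries. Alternatives were DESeq2 1.42.0, its size factors, no filter, unstranded counts, the outside-exon share as a covariate, a replicate block, and each library left out. Replicates all differed by more than counting noise. The chi-square for each degree of freedom was 1.87 between Cmtr1 cKO 1 and 2, the closest pair. It was 6.1 between the controls and 18.5 between Cmtr1 cKO 1 and 4, the widest pair. These values leave out CT010467.1, a ribosomal RNA gene with 454185 counts in Cmtr1 cKO 3 and at most 3159 in the others. Values in every library are given for called members, for Trp53, Mdm2 and Cdkn1a, and for the extremes of each role group, and from the other lists the called genes with Bax, Bbc3 and Pmaip1 are named. Members and lists were chosen with earlier results of these data known, so no list was tested as such.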

Additional observations from a re-analysis of the deposited data

Results flagged for a closer look

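Ccng1 in Cmtr1 cKO 4, at 230.8 CPM, lay far from the other 3 Cmtr1 cKO libraries, of which the highest had 200.1 CPM. It was the only such value among 28 members checked within the group of 4, and chance flags about 1 in 20. On the strand opposite to the gene, in reads that no comparison above used, 3 members had a higher CPM in all 4 Cmtr1 cKO libraries than in both controls. For Tnfrsf10b the opposite strand had a mean of 1.181 CPM against 0.6896 in the controls. For Trp53inp1 it was 0.4393 against 0.08743 CPM, and for Rrm2b 0.4197 against 0.1894 CPM. These are a few reads per library, and no test was made of them. The share of all genes that lay above both controls on the opposite strand was not counted. On the gene's own strand it was 18.2% of the genes tested, so 3 of 32 members is no result about the members.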

How the results depend on the processing

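Each setting is set against 8 members called higher, 1 called lower, 594 genes called higher and 863 lower. With 1 library left out in turn the members called higher ranged from 2 to 14 and those called lower from 0 to 1, all genes called higher from 39 to 1940 and lower from 154 to 1940, and the members' median log2 fold change from 0.20 to 0.34. With the outside-exon share as a covariate the members numbered 5 higher and 0 lower, and all genes 320 and 346. Without a filter 1167 genes were called higher. The replicate numbers do not establish a pairing, since the labels do not say what they mark and the deviations of same-numbered libraries correlated at 0.13 and -0.13. With the replicate block, which leaves 1 degree of freedom, 14 members, 2394 genes higher and 2448 lower were called, and Cdkn1a, Mdm2, Ercc5, Pidd1, Dcxr and Pvt1 were added. DESeq2 called 7 members and 675 of all genes higher, and gave Cdkn1a no adjusted p. Some log2 fold changes changed sign, and none was called in the fit of all libraries or where its sign changed. Most were near 0, while Pvt1 had 0.44 and Pmaip1 -0.53 in the fit of all libraries. With 1 library left out Xpc ranged from -0.055 to 0.012, Tnfrsf10b from -0.040 to 0.34, Ei24 from -0.0095 to 0.19, Sesn1 from -0.19 to 0.025, Trp53inp1 from -0.069 to 0.097 and Pmaip1 from -0.89 to 0.025. With the covariate Ercc5 had -0.020, Ppm1d 0.072, Sesn1 0.071 and Pvt1 -0.36. With the replicate block Xpc had 0.0017, Fas -0.070 and Trp53inp1 -0.057, and on unstranded counts Trp53inp1 had -0.015. The cause of these changes was not tested. With 2 controls, the spread of the control group rests on 1 pair, and leaving out either assumes that the lone control varies like the Cmtr1 cKO group.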
